A study of Mus musculus with 12 samples.

Results

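Car1, Car2, Bpgm and Aqp1 encode proteins with which red cells handle gases and water. They were taken as the genes named for this role, and their measurements are the 6 probe sets annotated to one of these 4 genes alone, out of 45101 probe sets and 18195 genes on the array. Bpgm had 3 probe sets and the other genes 1 each. All 4 genes passed the filter on dim signals that left 12673 genes for testing. The cells are I/11, an erythroid progenitor line derived from p53-deficient mouse fetal liver and maintained here without serum in erythropoietin (1 U/ml), stem cell factor (100 ng/ml) and dexamethasone (1 µM). Cells stably infected with a lentiviral pLKO vector carried either a scrambled shRNA (scr) or one of 2 hairpins against Plcg1 (shRNA ids PLCy1 sh 14 and PLCy1 sh 133, written sh14 and sh133), and each line was sampled at 1, 6, 12 and 22 h on 1 Affymetrix mouse array per time. The series asks what phospholipase C gamma 1 does in red cell formation driven by the erythropoietin receptor and JAK2. The labels give neither the event the hours are counted from, nor whether a line is a clone or a pool, nor whether arrays come from separate cultures.

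Carbonic anhydrases convert carbon dioxide and water to bicarbonate and a proton, and red cells hold large amounts of the cytosolic forms encoded by Car1 and Car2. The bicarbonate leaves through the anion exchanger encoded by Slc4a1. Bpgm encodes bisphosphoglycerate mutase, which diverts a glycolytic intermediate to 2,3-bisphosphoglycerate, the small molecule that lowers the oxygen affinity of hemoglobin. Aqp1 encodes the water channel of the red cell membrane.

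With no repeat array of a line and time, p-values rest on what an additive model of line, time and title date set left over, with 5 residual degrees of freedom. The array titles carry 2 different date strings of unstated meaning. Date set 1 is the 4 arrays of sh14 plus the sh133 line at 6 and 12 h, and date set 2 the 4 arrays of scr plus the sh133 line at 1 and 22 h, so scr and sh14 never share a set. Deposited values ran from 0.04 to 13.1 log2, array medians from 1.84 to 1.92, and correlations between arrays from 0.983 to 0.997. The erythroid genes Gata1 (7.73 to 8.62), Klf1 (8.26 to 10.1), Epor (6.08 to 7.24) and Tfrc (9.53 to 10.9) were bright on all 12 arrays. Plcg1, read from its brightest probe set, differed from scr by -0.36 in sh14 (limma adjusted p = 0.456) and -0.11 in sh133 (adjusted p = 0.767), neither past the threshold of 0.05. The 3' minus 5' actin control difference was 0.55 to 0.63 log2 in scr, 0.51 to 0.58 in sh14 and 0.51 to 0.53 in sh133 up to 12 h. The sh133 array at 22 h stood apart at 0.34 and also had the lowest Gapdh control difference (-0.17). Fits without this array are given below where they change the reading, and the cause of its low value was not tested. In such bulk samples fewer cells of a type and less RNA per cell cannot be told apart.

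The promoter table held no entry for Car1 or Car2. Bpgm and Aqp1 passed as higher at 22 h than at 1 h and as lower in sh14 than in sh133. In scr, Bpgm changed little with time. Promoters of these genes are shown because of both calls. These are the 250 bases before each start in RefSeq, build GRCm38.p6, plus strand, at chr6:34476106-34476355 for Bpgm and chr6:55336049-55336298 for Aqp1. Capitals mark CCNCNCCC on either strand, a core of sites of Kruppel-like factors.
Bpgm: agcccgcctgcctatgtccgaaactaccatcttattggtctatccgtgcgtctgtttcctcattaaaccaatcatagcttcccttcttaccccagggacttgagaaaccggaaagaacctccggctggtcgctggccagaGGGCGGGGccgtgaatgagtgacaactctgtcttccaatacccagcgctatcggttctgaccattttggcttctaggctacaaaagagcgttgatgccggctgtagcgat
Aqp1: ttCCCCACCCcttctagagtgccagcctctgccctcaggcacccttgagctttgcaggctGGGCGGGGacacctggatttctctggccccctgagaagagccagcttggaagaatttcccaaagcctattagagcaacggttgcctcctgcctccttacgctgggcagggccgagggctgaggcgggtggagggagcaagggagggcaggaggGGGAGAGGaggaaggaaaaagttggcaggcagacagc
The letters CCNCNCCC occurred once in the Bpgm window, 110 bases before the start, and at 3 places in the Aqp1 window, 248, 190 and 37 bases before it. They occurred in 45.9% of 32851 promoter windows of this length. GATA sites, written AGATAA or as TGATAA and each also with a final G, were searched on both strands, and were absent from both windows and present in 26.5% of all windows. A match of letters is a description and was not tested for binding.

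Signal of Car1, one of the cytosolic carbonic anhydrases, set the sh133 line apart at every time. In scr it was 9.84, 9.75, 9.89 and 9.76 log2 at 1, 6, 12 and 22 h. In sh14 it was 9.77, 9.74, 9.83 and 10.32 at the same times. In sh133 it was 10.75, 10.92, 11.08 and 11.04. The sh133 arrays were all above the highest array of the other lines, a separation whose share over all genes was not counted. Up to 12 h sh14 differed from scr by -0.074, -0.010 and -0.066 log2, and at 22 h it lay above scr (0.57). Averaged over the times (SD, n = 4), scr was at 9.81 ± 0.07, sh14 at 9.91 ± 0.28 and sh133 at 10.9 ± 0.15, with the SD including the change with time. Against scr, Car1 was 2.03-fold higher in sh133 (log2 1.02 ± 0.14 SE, limma adjusted p = 0.0037), and within date set 2 the difference was 0.90 at 1 h and 1.29 at 22 h. This call was lost without the sh133 array at 22 h, the one with the low actin difference (log2 0.99, adjusted p = 0.0677), where 135 genes in place of 622 were called over the whole array. Between the hairpin lines, sh14 was below sh133 by 1.15 log2 in the fit (-1.15 ± 0.14, adjusted p = 0.000838). Within date set 1, where both lines have arrays at 6 and 12 h, the difference was -1.22 (adjusted p = 0.00256). Fits within a date set use fewer arrays and leave fewer residual degrees of freedom than the main fit. Their p-values therefore rest more on the spread that limma pools over genes. The fitted change of Car1 from 1 to 22 h was 0.26 ± 0.13 and did not pass the test (adjusted p = 0.198), although without the scr array at 22 h it did (0.43, adjusted p = 0.0221).

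**Figure D1:**
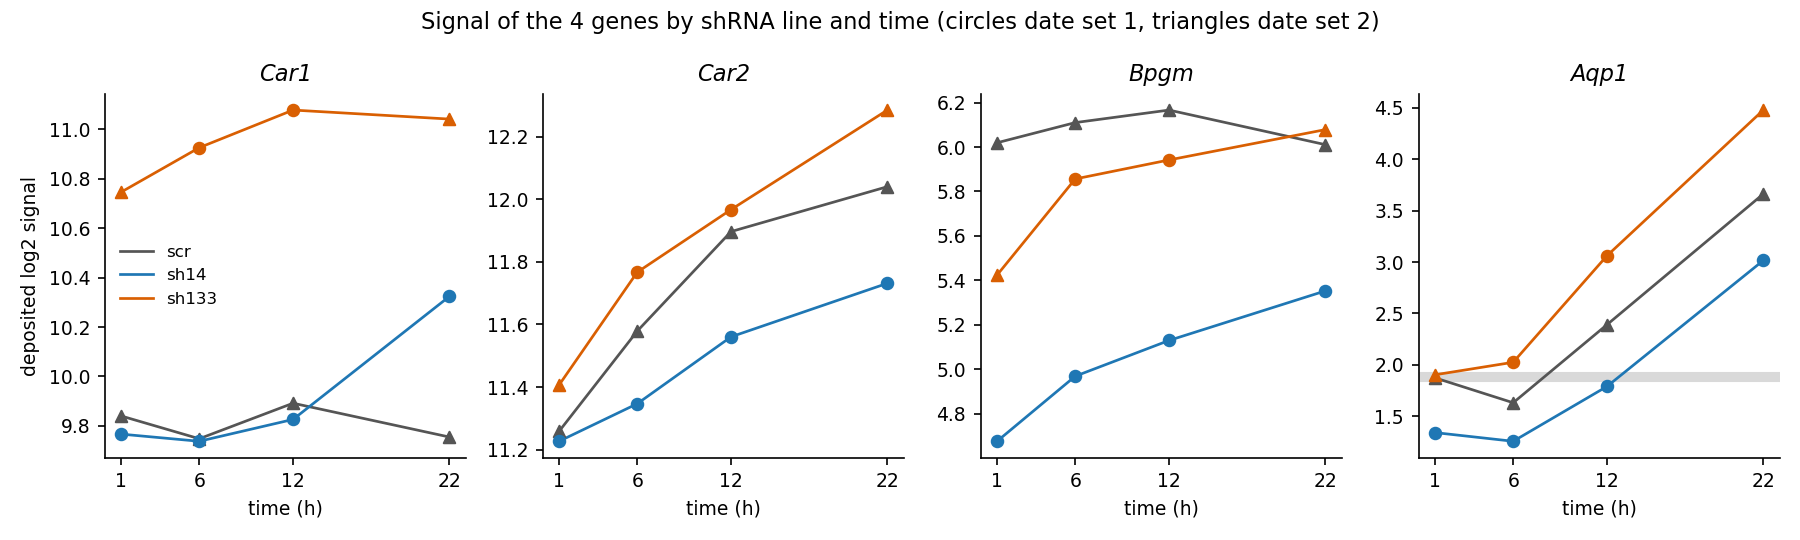
Deposited log2 signal (y) against hours (x) for Car1, Car2, the brightest Bpgm probe set and Aqp1, with 1 point per array and 1 line per shRNA; circles are date set 1, triangles date set 2, and the grey band in the Aqp1 panel spans the array medians of 1.84 to 1.92. Car1 in sh133 lies above 10.7 at every time, Car2 rises in all 3 lines, Bpgm is lowest in sh14, and Aqp1 climbs after 6 h in each line.

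Car2, also a cytosolic carbonic anhydrase, rose with time in each line and differed little between lines. It was at 11.26, 11.58, 11.90 and 12.04 log2 in scr. In sh14 the values were 11.23, 11.35, 11.56 and 11.73. In sh133 they were 11.41, 11.77, 11.97 and 12.29. Every step was upward in every line, and the ranges of the lines overlapped. The change from 1 to 22 h was 0.78 in scr, 0.50 in sh14 and 0.88 in sh133, a fitted 1.65-fold rise (log2 0.72 ± 0.10, limma adjusted p = 0.000803). At each time Car2 was highest in sh133 and lowest in sh14, and sh14 was below sh133 by a fitted -0.39 ± 0.11 (adjusted p = 0.0451). That call was near the threshold: it was lost without any of 8 arrays, namely sh14 at 6, 12 or 22 h, sh133 at 6 or 12 h and scr at 6, 12 or 22 h (adjusted p = 0.0534 to 0.343). It was also lost with no filter on dim genes (adjusted p = 0.0553), with each probe set as a row (adjusted p = 0.0666) and with time as a line on log2 hours (adjusted p = 0.0672). Neither hairpin line differed from scr in Car2 past the threshold, with 95% confidence intervals of -0.59 to 0.16 for sh14 and -0.08 to 0.42 for sh133.

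Bpgm, the mutase that makes 2,3-bisphosphoglycerate, was lowest in sh14. Its brightest probe set (1415865_s_at) was at 6.02, 6.11, 6.17 and 6.01 log2 in scr at 1, 6, 12 and 22 h. In sh133 it was at 5.42, 5.86, 5.94 and 6.08. In sh14 it was at 4.68, 4.97, 5.13 and 5.35. All sh14 arrays were below all arrays of the other lines, a separation whose share over all genes was not counted. The sh133 line started below scr and reached its level at 22 h. Against scr, Bpgm in sh14 was at 46.2% of the signal (log2 -1.11 ± 0.22, limma adjusted p = 0.0276), a comparison for which no within-set value exists. The call was lost without any of 8 arrays, sh14 at 6 or 12 h, sh133 at 1, 6 or 12 h and scr at 1, 6 or 12 h (log2 -1.13 to -0.89, adjusted p = 0.0512 to 0.156). Against sh133, Bpgm in sh14 differed by -0.83 ± 0.15 (adjusted p = 0.00525) and by -0.85 within date set 1 (adjusted p = 0.00611). Without the sh133 array at 6 h or at 12 h it was at -0.82 and -0.84 (adjusted p = 0.0835 and 0.078). In sh133 against scr the difference was -0.29 ± 0.15 (adjusted p = 0.36).

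Bpgm signal was little changed in scr from 1 to 22 h (-0.0085) and increased by 0.68 in sh14 and 0.65 in sh133. The slope on log2 hours was steeper in the hairpin lines than in scr by 0.13 ± 0.04 log2 per doubling of hours, with an unadjusted p of 0.00796 and a limma adjusted p of 0.168, so the difference between time courses did not pass the test. Over all lines the rise was 1.36-fold (0.44 ± 0.13, adjusted p = 0.0405). It missed the threshold when each array was centred on its median (0.42, adjusted p = 0.0544), within date set 2 (0.32, adjusted p = 0.328), and without any of 10 arrays, all except those of scr at 1 and 22 h (0.33 to 0.44, adjusted p = 0.0593 to 0.235).

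All 3 Bpgm probe sets were lowest in sh14, and the mean over times was higher in scr than in sh133 in each (6.08 against 5.83, 6.06 against 5.88 and 5.46 against 5.44). When each of 27061 probe sets was tested as its own row, sh14 minus sh133 was -0.83, -0.91 and -0.80 for 1415865_s_at, 1415864_at and 1448119_at (limma adjusted p = 0.00777, 0.0071 and 0.0057). The change from 1 to 22 h was 0.44, 0.51 and 0.54 (adjusted p = 0.0493, 0.0365 and 0.0135). Against scr, sh14 was at -1.11, -1.11 and -0.86, of which the brightest set passed (adjusted p = 0.0449) and the others did not (adjusted p = 0.0586 and 0.0802). In each set the 4 sh14 values lay below all scr and sh133 values, and the share of all probe sets so separated was not counted.

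**Figure D2:**
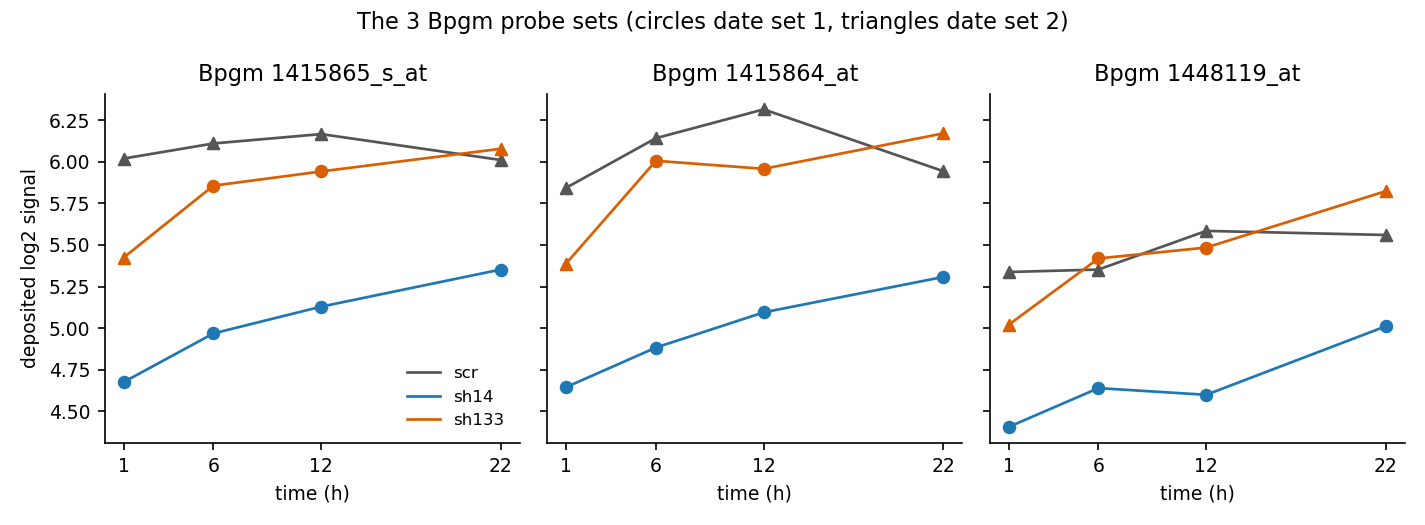
Deposited log2 signal (y) against hours (x) of the 3 Bpgm probe sets, 1 point per array and 1 line per shRNA; circles are date set 1 and triangles date set 2. In all 3 panels sh14 is the lowest line at every time, and scr changes by -0.0085, 0.10 and 0.22 from 1 to 22 h against 0.61 to 0.80 in the hairpin lines.

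Aqp1, the water channel gene, showed the steepest time course of the 4 genes. In scr it was at 1.87, 1.63, 2.39 and 3.66 log2 at 1, 6, 12 and 22 h. In sh14 it was at 1.34, 1.26, 1.79 and 3.02. In sh133 it was at 1.90, 2.03, 3.06 and 4.48. At 1 and 6 h all values were close to or below the array medians, near background, where the size of a difference is uncertain, and by 22 h each line was well above them. From 1 to 22 h the deposited log2 signal rose by 1.79 in scr, 1.67 in sh14 and 2.57 in sh133, and no fold is given against these dim starting values. The fitted difference was 2.01 ± 0.16 (limma adjusted p = 4.49e-05), and the call held without each array in turn (1.73 to 2.15, adjusted p at most 0.000302). The fitted change from 1 to 6 h was -0.088 ± 0.18 (adjusted p = 0.862).

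The Aqp1 signal went up after 6 h. From 6 to 12 h it was 0.78 ± 0.16, positive in 3 of 3 lines but not past the threshold (limma adjusted p = 0.599), in a step for which 1 of 12673 genes passed. From 12 to 22 h it was 1.32 ± 0.18 (adjusted p = 0.0183), with 1.27 in scr, 1.22 in sh14 and 1.42 in sh133. This call was lost without the array at 12 h of any line or the 6 h array of scr or sh133 (1.24 to 1.39, adjusted p = 0.0551 to 0.165). At each time Aqp1 was highest in sh133 and lowest in sh14, and sh14 minus sh133 was -0.56, -0.77, -1.27 and -1.46 at 1, 6, 12 and 22 h, a fitted -1.05 ± 0.19 (adjusted p = 0.00517). Within date set 1 it was -1.02 (adjusted p = 0.0103), and without the sh133 array at 12 h it was -0.85 and missed the threshold (adjusted p = 0.116). With time as a line it was -0.52 and missed it too (adjusted p = 0.489). Neither line passed against scr, with -0.60 ± 0.28 in sh14 (adjusted p = 0.324) and 0.45 ± 0.19 in sh133 (adjusted p = 0.244). Without the date set term both passed, at -0.54 (adjusted p = 0.0133) and 0.48 (adjusted p = 0.0394), and without the sh133 array at 1 h the sh133 difference was 0.87 (adjusted p = 0.046). Without the sh133 array at 22 h it was 0.027 (adjusted p = 0.973).

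Between the hairpin lines all 4 genes were lower in sh14, and each passed the test, with the losses of the Car2, Bpgm and Aqp1 calls under other settings given above. Over all genes tested, limma called 14.6% in this comparison and 7.11% as lower in sh14. Each gene was below sh133 at 4 of 4 times, as were 21.7% of all genes tested. The fitted differences ran from -0.39 for Car2 to -1.15 for Car1. Without the sh133 array at 12 h Car1 passed and the other genes did not, and without its 6 h array Car1 and Aqp1 passed.

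Against scr the genes did not move as a group. In sh14, Bpgm passed as lower and 3 genes did not pass, where 3.06% of all genes were called and 1.56% as lower. In sh133, Car1 passed as higher and 3 did not, where 4.91% of all genes were called and 2.45% as higher. The 2 lines were on opposite sides of scr in Car2 and Aqp1 at 4 of 4 times, a joint pattern whose share over all genes was not counted. Car1, Car2 and Aqp1 were above scr in sh133 at 4 of 4 times, as were 18.3% of all genes, and Car2, Bpgm and Aqp1 were below scr in sh14 at 4 of 4 times, as were 18.2%. Both comparisons share the scr arrays. For the mean of both hairpin lines against scr limma called 0 of the 4 genes (2.18% of all genes), with 2 at an unadjusted p under 0.05. The differences were 0.45 ± 0.17 for Car1 (adjusted p = 0.251), -0.025 ± 0.13 for Car2 (adjusted p = 0.961), -0.70 ± 0.18 for Bpgm (adjusted p = 0.0789) and -0.074 ± 0.22 for Aqp1 (adjusted p = 0.927). Without the scr array at 22 h Bpgm passed (-0.94, adjusted p = 0.0189).

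**Figure D3:**
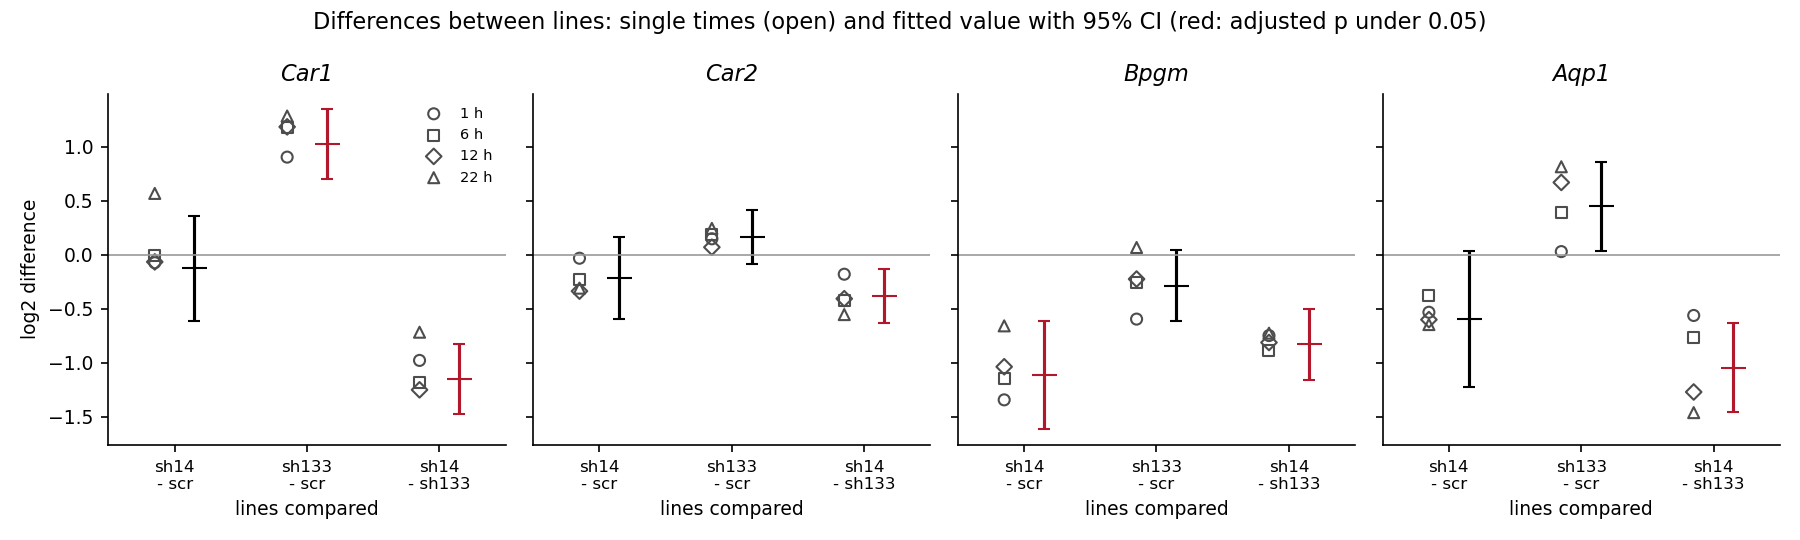
Log2 differences between lines (y) for each gene and pair of lines (x); open symbols are the single differences at 1, 6, 12 and 22 h, and bars the fitted value with its 95% confidence interval, red where the limma adjusted p is under 0.05. All 4 genes have red intervals below 0 for sh14 minus sh133, while against scr the red intervals are Car1 in sh133 and Bpgm in sh14.

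With time, Car2, Bpgm and Aqp1 rose from 1 to 22 h and Car1 did not pass, where 18.1% of all genes were called and 8.74% as higher. Car2 and Aqp1 were higher at 22 h than at 1 h in 3 of 3 lines, as were 24.3% of all genes. For 6 h against 1 h limma called 0 of the 4 genes (4.86% of all genes), with 1 at an unadjusted p under 0.05. For 12 h against 6 h it called 0 (0.00789% of all genes), with 2 at an unadjusted p under 0.05, and for 22 h against 12 h it called Aqp1 as higher (1.25% of all genes, 0.426% as higher). In that last step 54 genes rose and 104 fell over the whole array, against 62 and 61 after a second quantile normalization and 58 and 222 with each array centred on its median, and Aqp1 passed under each. For the difference in slope between hairpin lines and scr it called 0 (0.0316% of all genes), with 1 at an unadjusted p under 0.05.

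**Figure D4:**
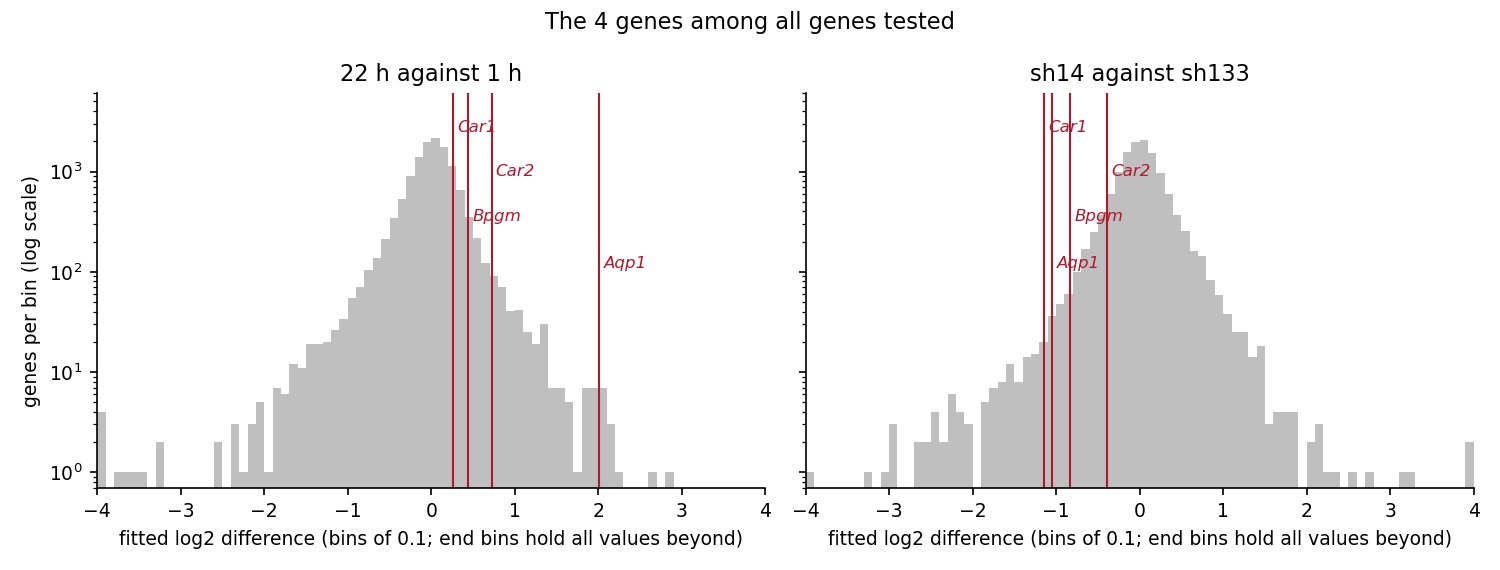
Number of genes (y, log scale) by fitted log2 difference (x, bins of 0.1, end bins holding all values beyond) over 12673 genes, for 22 h against 1 h and for sh14 against sh133, with vertical lines at the 4 genes. Aqp1 stands at 2.01 in the upper tail with time, and for sh14 against sh133 the 4 lines lie between -1.15 and -0.39.

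Of 9 further carbonic anhydrases tested, 1 was higher in sh133 than in scr and 0 lower, where 4.91% of all genes were called. It was Car12, a membrane-bound form, whose mean was 3.31 in sh133, 2.60 in sh14 and 2.35 in scr (1.08 ± 0.22, limma adjusted p = 0.0227), and its difference between sh14 and sh133 was -0.59 (adjusted p = 0.111). In sh14 against sh133, 1 of the 9 was higher and 0 lower (median 0.13, against 0.0014 over all genes), a share near the 14.6% called over all genes. The higher one was Car3, which lies between Car1 and Car2 in map order on chromosome 3. Its mean was 8.04 in sh14 and 7.08 in sh133 (1.07 ± 0.21, limma adjusted p = 0.00873), opposite to both neighbours. Car13, next to Car1 on the other side, differed by 0.16 (adjusted p = 0.537). From 1 to 22 h Car5a rose (0.57 ± 0.14, adjusted p = 0.0214), though its means of 1.48 at 1 h and 2.05 at 22 h were near background. Car3 fell by 0.81 (adjusted p = 0.0137) and Car12 fell by 1.29 (adjusted p = 0.0015), and 6 did not pass, where 18.1% of all genes were called. The Car12 means of 2.35 in scr and 2.17 at 22 h were not far above the array medians, so the sizes of its differences are uncertain.

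Among 8 other aquaporins tested, 1 was lower in sh14 than in sh133 and 0 higher, where 7.11% of all genes were lower. It was Aqp3, a channel that also passes glycerol, with means of 3.69 and 4.96 (-1.05 ± 0.24, limma adjusted p = 0.0176). From 1 to 22 h limma called 0 of these 8, with 0 at an unadjusted p under 0.05, where 18.1% of all genes were called. Aqp11 was the 1 of them that passed for the mean of both hairpin lines against scr (-0.93 ± 0.20, adjusted p = 0.0417), where 2.18% of all genes were called. Taken line by line, Aqp11 passed in sh133 (-1.07, adjusted p = 0.00605) and not in sh14 (-0.79, adjusted p = 0.134).

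Of 17 glycolytic genes tested beside Bpgm, 3 were higher in sh14 than in sh133 and 1 was lower (median -0.13, against 0.0014 over all genes), where 14.6% of all genes were called. Gapdh (0.58 ± 0.12, limma adjusted p = 0.0114) and Tpi1 (0.54 ± 0.12, adjusted p = 0.0129) were higher. Pgk1, whose enzyme uses the same intermediate as the mutase, was lower (-0.59 ± 0.13, adjusted p = 0.013). With time 2 rose and 4 fell, where 18.1% of all genes were called, led by a rise of the red cell pyruvate kinase gene Pklr (1.23 ± 0.15, adjusted p = 0.000395) and falls of Pkm (-0.87 ± 0.16, adjusted p = 0.00483) and Hk2 (-0.79 ± 0.12, adjusted p = 0.00167). From 1 to 22 h Pgam1, the sister mutase of glycolysis, had a difference of -0.055 (adjusted p = 0.749). Minpp1, which can break down 2,3-bisphosphoglycerate, had one of 0.24 (adjusted p = 0.138). In the step from 1 to 6 h Pgam1 was among 3 of the 17 genes called lower, with 0 higher, where 4.86% of all genes were called.

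Of 16 membrane and hemoglobin partners tested, 11 rose from 1 to 22 h and 0 fell (median 0.73, against 0.020 over all genes), where 8.74% of all genes rose. Among them were the beta globin gene Hbb-b2 (2.28 ± 0.19, limma adjusted p = 4.83e-05), whose near-identical copies may share its probes, the membrane skeleton gene Epb42 (2.05 ± 0.12, adjusted p = 8.73e-06) and the Rh gene Rhd (1.97 ± 0.14, adjusted p = 1.91e-05). In sh14 against sh133, 4 were lower and 0 higher, where 7.11% of all genes were lower, including the anion exchanger gene Slc4a1 (-1.55 ± 0.24, adjusted p = 0.00268), the methemoglobin reductase gene Cyb5r3 (-1.11 ± 0.11, adjusted p = 0.000208) and the urea transporter gene Slc14a1 (-0.97 ± 0.14, adjusted p = 0.00146). For the mean of both hairpin lines against scr, 3 of the 16 were lower and 0 higher, where 2.18% of all genes were called. They were Epb42 (-0.86 ± 0.16, adjusted p = 0.0242), Rhd (-0.84 ± 0.18, adjusted p = 0.0487) and Cyb5r3 (-0.66 ± 0.13, adjusted p = 0.0298). Taken line by line, Cyb5r3 passed in sh14 (-1.22, adjusted p = 0.00439) and not in sh133 (-0.11, adjusted p = 0.682). Rhd passed in sh133 (-0.68, adjusted p = 0.0361) and narrowly missed the threshold in sh14 (adjusted p = 0.0526). Epb42 passed in sh14 (-1.09, adjusted p = 0.0197) and in sh133 (-0.63, adjusted p = 0.0247).

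**Figure D5:**
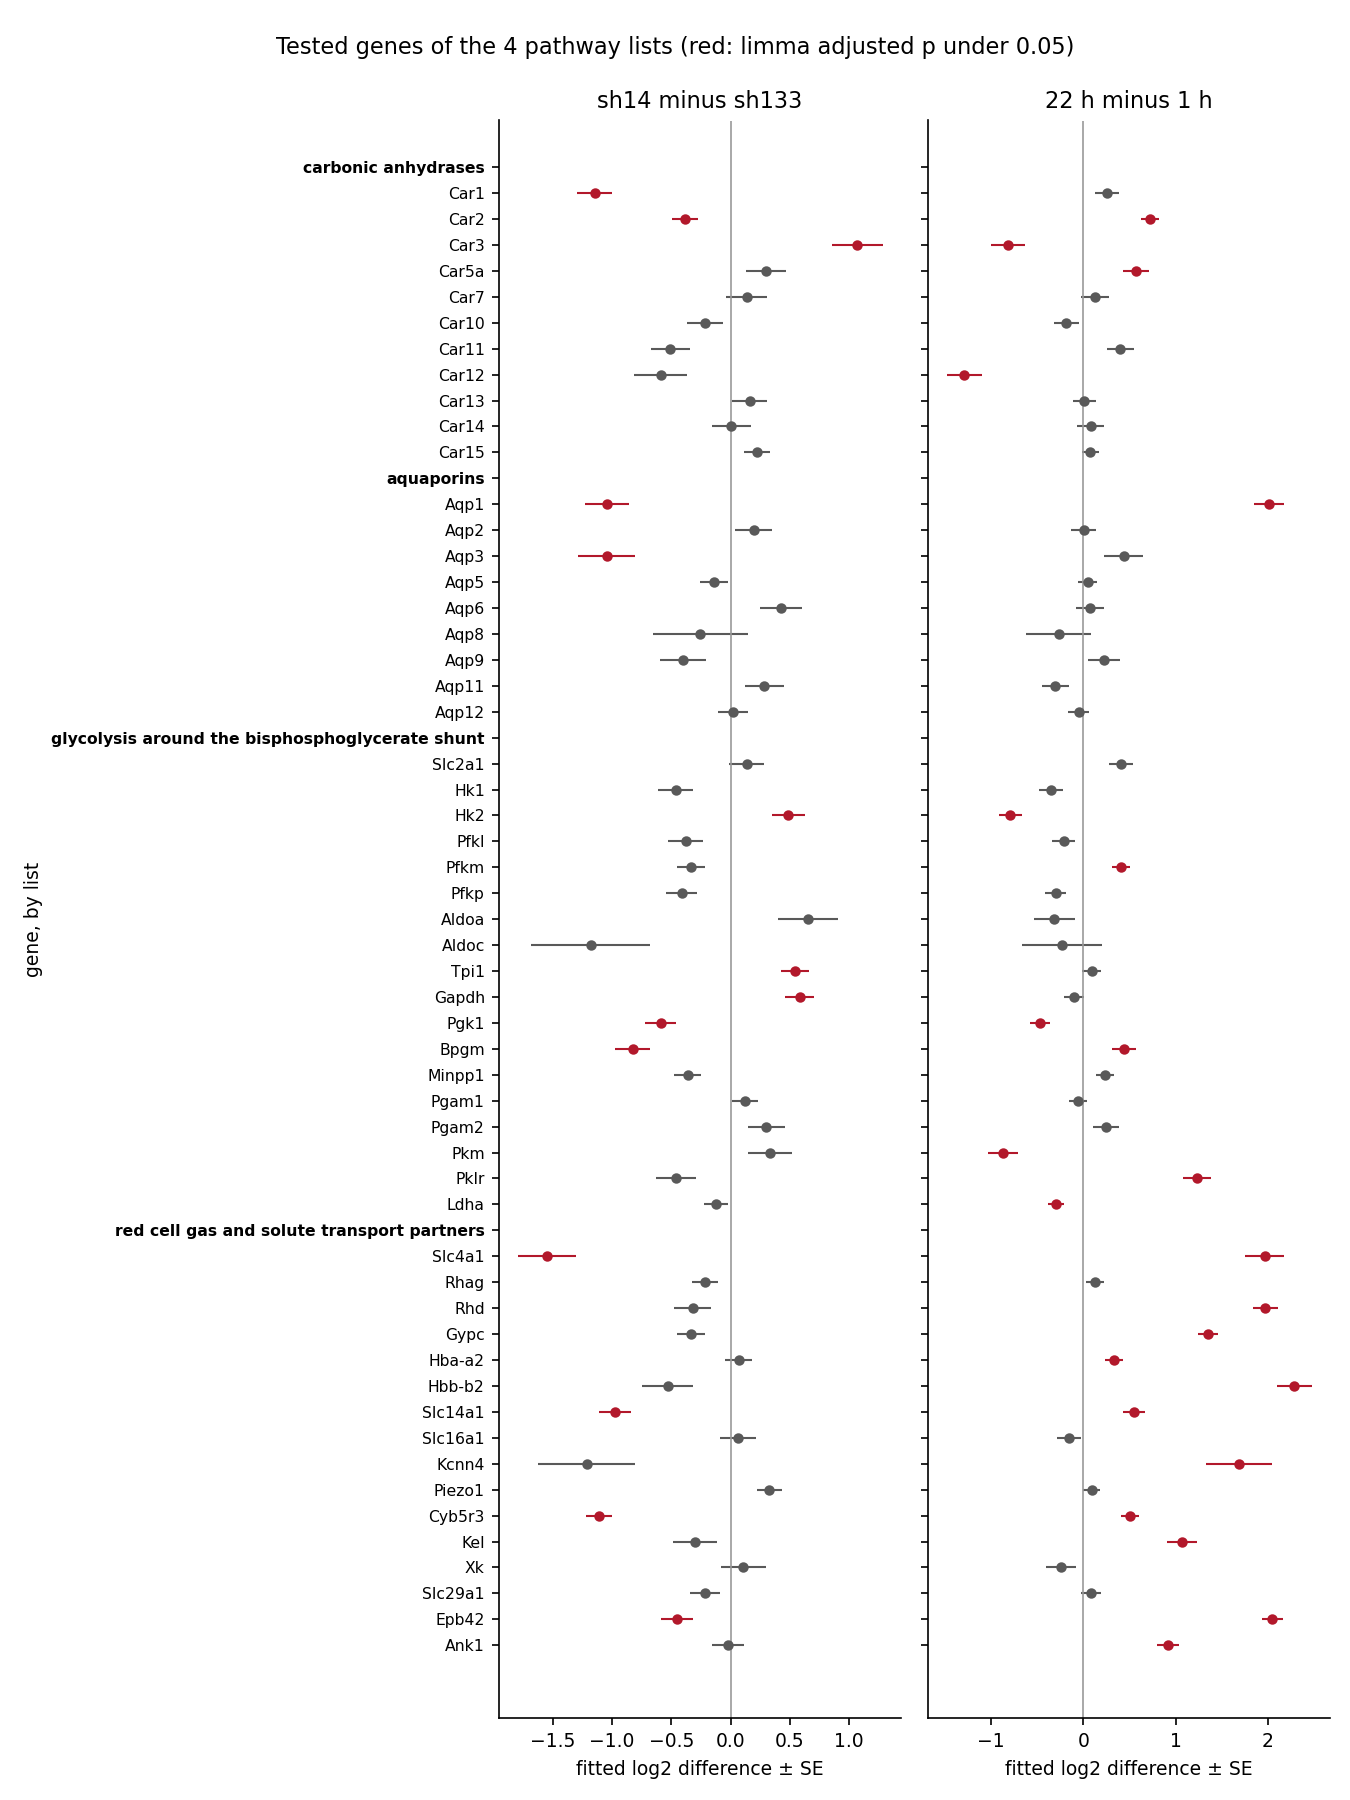
Fitted log2 difference ± SE (x) of each tested gene of the 4 pathway lists (y), for sh14 minus sh133 and 22 h minus 1 h, red where the limma adjusted p is under 0.05. In the left panel Car3 lies at 1.07 and Car1 at -1.15, and 11 of the 16 partner genes are red and above 0 in the right panel.

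Markers of other cells are given beside these differences, for which 14.6% of all genes were called in sh14 against sh133 and 18.1% in 22 h against 1 h. Of 8 mast cell and basophil markers tested, 4 were higher in sh14 than in sh133 and 0 lower, and from 1 to 22 h 2 rose and 3 fell. Of 10 measured, 5 (Cd200r3, Cma1, Mcpt8, Ms4a3 and Tpsb2) had means below the highest array median. Their summed linear signal ranged over 98.5 to 743.7 in scr, 130.8 to 388.5 in sh14 and 69.5 to 502.1 in sh133. Of 8 erythroid markers tested 2 were lower in sh14 than in sh133, and 8 of 8 rose from 1 to 22 h. Of 5 progenitor markers 5 fell from 1 to 22 h, and 1 was higher and 0 lower in sh14 than in sh133. Of 7 megakaryocyte markers tested, 1 was higher and 2 lower in sh14 than in sh133, and from 1 to 22 h 1 rose and 0 fell. Their summed signal was 78.5 to 128.3 in scr, 207.6 to 292.0 in sh14 and 134.5 to 305.9 in sh133. The part of these cell types in the differences of the 4 genes was not tested. Of 7 endothelial genes measured, 5 (Cdh5, Emcn, Pecam1, Tek and Tie1) had means below the highest array median. Kdr and Egfl7 did not, and Egfl7 fell from 1 to 22 h. The summed endothelial signal was 85.8 to 124.0 in scr, 76.2 to 85.4 in sh14 and 59.3 to 105.0 in sh133. All 6 lymphoid markers measured lay below that median (of 3 tested, Cd79a was higher in sh14 than in sh133), as did 7 of 10 myeloid ones. The alpha globin gene Hba-a1, an erythroid marker, was also below that median. Hba-a2, with a mean of 2.40 log2 not far above it, rose by 0.33 ± 0.10 from 1 to 22 h (limma adjusted p = 0.0412). Probe sets annotated to several genes were left out, so these values may not stand for alpha globin signal as a whole.

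The genes whose signal over the 12 arrays was most like that of each of the 4 differed from one another. Closest to Car1 were Tgfbr3, Mmp2 and Ctsf (Pearson r = 0.96 each). Closest to Car2 were Grtp1 and Tceal8 (r = 0.98 each) and Atp6v0e (r = 0.97). Reps2, Eci2 and Slc38a5 were closest to Bpgm (r = 0.97, 0.96 and 0.95), and Tceal9, Lzts2 and Fhdc1 to Aqp1 (r = 0.97, 0.96 and 0.94). Among the 4 genes themselves r was highest for Car2 with Aqp1 (0.90) and lowest for Car1 with Bpgm (0.28). These r values describe 12 arrays that share 3 lines and 4 times, so they carry no test.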

How the data were processed

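Amplified, biotin-labelled RNA was hybridised to 12 arrays. The deposited values are log2 signals from RMA, a tool named without a version in the submitters' processing notes. This method equalises the arrays, so changes in total RNA cannot be read. No column of values was left unused. Gene names came from the array's annotation (34958 with 1 gene, 932 with several, 9211 with none), and 34754 were matched by Entrez identifier to RefSeq symbols of assembly GRCm38.p6. The brightest probe set stood for a gene, and genes whose mean lay below log2 1.45, the 40th percentile over probe sets, were not tested. Differences were tested with limma 3.58.1 (R 4.3.3) with terms for line, time and title date set, with Benjamini-Hochberg adjustment over 12673 genes. The slope comparison had 4 residual degrees of freedom. The script was tested on simulated data. Replicate numbers follow deposit order and pair nothing, and p-values measure only the spread between these arrays. The number of arrays limits precision. Named beside the 4 genes and Plcg1 were the 3 genes most correlated with each and up to 3 called genes per list and main comparison. Car13, Pgam1, Minpp1 and the erythroid genes were named after their values were seen. The 4 genes, the lists and the model were chosen with earlier results of these data known. Alternatives were no date set term or a random block, fits within a date set, other filters, probe set rules and scalings, trended and robust variances together, time as a line, and leaving out each array. Figures used matplotlib 3.10.9.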

Additional observations from a re-analysis of the deposited data

Results flagged for a closer look

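Car1 in sh14 at 22 h (10.32) stood apart from the other 3 sh14 arrays (9.74 to 9.83), with a gap to the nearest of them of 0.849 of the range of the 4 arrays. The arrays differ in time, so a late change and a deviating array cannot be told apart. Of 18 groups of 4 arrays checked this was the 1 that stood apart, and chance gives about 1 in 20.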

How the results depend on the processing

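Over 779 values of the 4 genes under the alternatives, 704 kept their direction and their side of the threshold, 41 lost and 12 gained a call, and 22 changed sign, none of which was called in the model used above. Without the date set term, or with it as a random block, 2 of the 4 genes passed for both hairpins against scr, 2 for sh14 and 2 for sh133 against scr, and over all genes 2049, 3003 and 1592 were called without the term in place of 276, 388 and 622, with 3132 for sh14 against sh133 (1856) and 946 for 6 h against 1 h (616); the random block gave 2088, 3047, 1606, 3139 and 948. Under these 2 settings Car1 in sh14 against scr was at 0.10 and 0.11, and Car1 at 6 h against 1 h at 0.0195 and 0.0200. In the model used above, the date set term itself passed the limma threshold for 0 of 12673 genes. Before adjustment, 694 genes fell below 0.05 for this term. For the 4 genes, set 1 minus set 2 was -0.010 to 0.23 log2 (limma adjusted p = 0.936 to 0.997). Their SE for sh14 against scr was 0.17 to 0.28 with the term and 0.082 to 0.135 without it. Within date set 2 the counts were 254 for sh133 against scr and 1240 for 22 h against 1 h (2291), and within date set 1 the count was 2366 for sh14 against sh133 (1856). With each probe set as a row 4034 probe sets passed for 22 h against 1 h and 1003 for 6 h against 1 h. Centring gave 280 for 22 h against 12 h (158), time as a line 590 for sh14 against scr, and trended and robust variances, set together, 112 for the slope difference (4), which gave 0 or 1 with the stricter filter, probe sets averaged per gene, each probe set as a row, either scaling, or time as a line. With time as a line, 1 gene passed for both hairpins against scr and 2 (Car1 and Bpgm) for sh14 against sh133, and signs turned for Car2 (0.055) and Aqp1 (0.72) with both hairpins, and for Car1 (0.041) and Aqp1 (0.46) in sh14. A filter at the 60th percentile left Aqp1 out, so 0 passed for 22 h against 12 h. The cause of these changes was not tested. Leaving out 1 array at a time gave 0 to 1 genes for both hairpins, 0 to 1 for sh14, 0 to 2 for sh133, 1 to 4 for sh14 against sh133 and 0 to 1 for 22 h against 12 h. Over all genes it gave 59 to 384 calls for both hairpins, 87 to 555 for sh14, 135 to 734 for sh133, 390 to 2206 for sh14 against sh133, 1146 to 2273 for 22 h against 1 h, 97 to 730 for 6 h against 1 h, 0 to 1 for 12 h against 6 h, 1 to 212 for 22 h against 12 h and 0 to 361 for the slope difference, so the shares over all genes move with single arrays. Values that turned ranged from -0.14 to 0.093 (Car2) and -0.50 to 0.35 (Aqp1) for both hairpins, -0.23 to 0.043 (Aqp1) and -0.13 to 0.033 (Car1) for 6 h against 1 h, -0.017 to 0.40 (Car1) and -0.036 to 0.32 (Bpgm) for 22 h against 12 h, and -0.070 to 0.012 (Car2), -0.011 to 0.26 (Car1) and -0.013 to 0.16 (Aqp1) for the slope difference. No paired analysis was possible because the labels give no replicate numbers; arrays of one time are matched by the time term.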
